A study of Arabidopsis thaliana with 4 samples.

Results

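The interval described here is a stretch of 14201 bp on chromosome 4 of Arabidopsis thaliana (TAIR10.1, chr4:12731500-12745700) that holds the genes MOS1 (AT4G24680) and NBR1 (AT4G24690) and the sequence between them. It was chosen by measured methylation levels: the gap between both genes held the 1 bin of 200 bp, among 4312 that could be tested for CHH methylation, with an adjusted p under 0.05 for the contrast of SNP against mock (edgeR's quasi-likelihood test, Benjamini-Hochberg adjusted p = 0.0432, 0.0232% of the bins tested). Without mock 2 its adjusted p was 0.0689, and it also missed the threshold under 4 other settings given in the closing section. The test summed reads over the 16 CHH sites of the bin, and up to 15 of these lie within 1 read length. A read could thus be counted many times, which the adjusted p does not allow for. In 1 of the 4 settings, mean depth per bin replaced the summed reads, and the bin's unadjusted p was 0.00552 (edgeR). The bin just outside the threshold lay on chromosome 2, with an adjusted p of 0.0560 and a level 39.5 points lower in SNP. Since that contrast chose the interval, differences between SNP and mock inside it are given below as a description, without a test. In all, 530 distinct cytosines of the interval were listed as methylated in at least 1 library, of 6303651 in the nuclear genome, and its members are 2 of 27444 protein-coding genes.

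Shoot apices were treated for 24 h with 0.025% Silwet, a wetting agent, either alone (mock, 2 libraries) or with 1 mM sodium nitroprusside (SNP, 2 libraries), which releases nitric oxide. The labels give the genotype of all 4 libraries as Col-0, while the study's methods name ap1/cal plants, whose apices are a mass of arrested meristems. That mutant background, if used, was shared by treated and control samples. Genomic DNA was converted enzymatically, so that unmethylated cytosines read as thymine, and was sequenced as 75-base paired reads (EM-seq). The methods call the libraries biological replicates without saying which plants each came from, so that the errors given here measure the spread between these libraries. Within a whole apex, a lower share of methylated cells of a type and a lower level in each cell cannot be told apart.

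The 4 libraries listed between 3857352 and 4134559 nuclear cytosines, at a median depth of 8 to 10 reads. A cytosine was listed only with at least 2 methylated reads, so that a cytosine without an entry was either not covered or not called, and levels over listed sites leave out unmethylated cytosines. Between 40.7% and 52.4% of the listed CHH sites of a library rested on exactly 2 methylated reads. SNP 2 was the shallowest library, with a median depth of 8 reads. Its depths summed to 42221751 over its listed sites, against 49394378 to 50875710 in the others. In these sums a read counts once for each listed site it covers.

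In plants, cytosines are methylated in the CG, CHG and CHH contexts, where H is A, C or T. CG methylation is copied onto the new strand after replication by MET1 and is common inside the bodies of expressed genes, whereas CHH methylation has no symmetric partner and has to be set anew, in part through small RNAs in the RNA-directed DNA methylation pathway, typically over transposons and other repeats. MOS1 (MODIFIER OF snc1) encodes a large protein with a BAT2 domain that is required for expression of the immune receptor gene SNC1. NBR1 encodes a cargo receptor of selective autophagy, which binds ubiquitin and the ATG8 proteins of the autophagosome membrane.

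The sequence that carried the CHH methylation is shown first, because its bases decide which strand and context could be read. The windows come from TAIR10.1, each is written 5′ to 3′ on its own strand, and capitals mark the cytosines of the stated context that were listed in all 4 libraries. The first pair is the same 90 bases of the gap (chr4:12740271-12740360), read on the plus strand with 18 CHH cytosines marked and on the minus strand with 5 marked. The other window (chr4:12740401-12740530, plus strand) lies further towards NBR1 and has 5 CG and CHG cytosines marked.
CHH plus strand: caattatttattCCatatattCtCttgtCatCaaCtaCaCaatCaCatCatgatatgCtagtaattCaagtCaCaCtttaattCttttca
CHH minus strand: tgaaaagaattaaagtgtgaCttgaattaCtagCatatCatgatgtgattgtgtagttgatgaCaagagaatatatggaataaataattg
CG and CHG plus strand: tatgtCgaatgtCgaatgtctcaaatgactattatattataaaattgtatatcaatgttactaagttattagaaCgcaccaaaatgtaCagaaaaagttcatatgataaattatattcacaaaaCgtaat

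The interval falls into 5 segments. MOS1 (plus strand, chr4:12732494-12740094, 7601 bp) is preceded by an upstream flank of 994 bp, and NBR1 (plus strand, chr4:12741032-12744670, 3639 bp) is followed by a downstream flank of 1030 bp. The gap between both genes measured 937 bp (chr4:12740095-12741031) and was poor in G and C, at 23.8% against 41.1% in MOS1, 42.1% in NBR1 and 36.2% over chromosome 4. The downstream flank holds AT4G24700, a minus-strand gene whose 3′ end overlaps that of NBR1, and the end of AT4G24710, also on the minus strand.

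**Figure D1:**
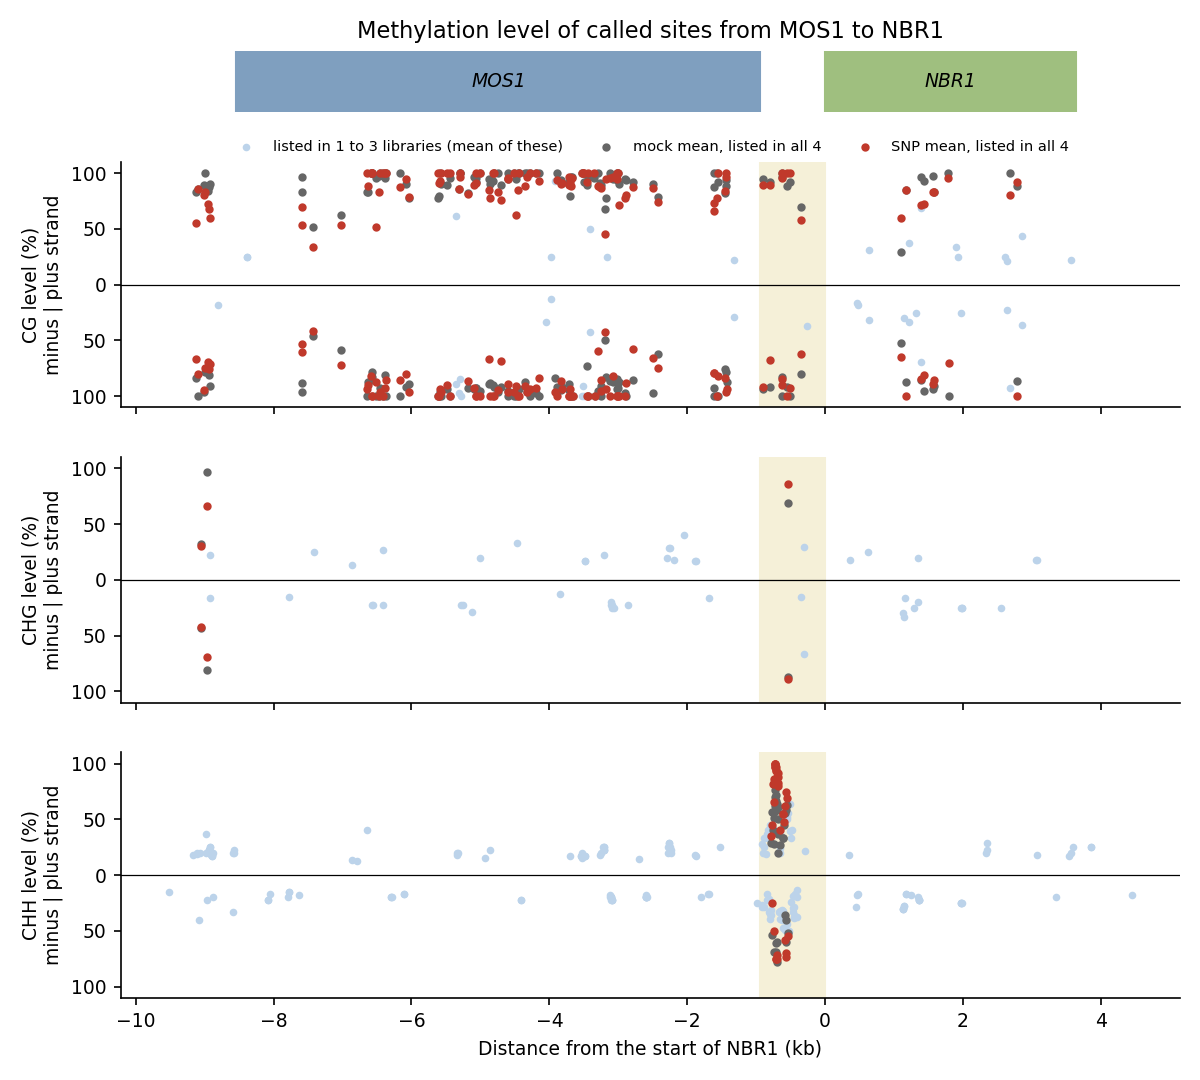
Methylation level (percent) of every listed cytosine against its distance from the NBR1 start (kb), with 1 panel for each context, the plus strand above and the minus strand below the line, and the gap shaded; dark grey and red points are the mock and SNP means of sites listed in all 4 libraries, pale points the mean of sites listed in 1 to 3. CG sites cover most of the MOS1 body and 2 clusters in NBR1, while CHH sites listed in all 4 libraries lie in the gap alone.

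CHH methylation was listed far more often in the gap than in the gene bodies. This contrast was partly fixed in advance, because the bin that chose the interval had to hold CHH sites listed in all 4 libraries. In the CHH context, 39.5%, 35.7%, 44.3% and 35.7% of the 185 gap cytosines were listed in mock 1, mock 2, SNP 1 and SNP 2, and values are given in this order of libraries throughout. Over both gene bodies the share of CHH cytosines listed was 0.693%, 0.874%, 0.784% and 0.603%. The gap was therefore higher in each of the 4 libraries, by 38.0 ± 4.09 points (SD, n = 4; 38.8 ± 4.10% against 0.738 ± 0.117%). Of the 98 gap CHH cytosines listed in any library, 37 were listed in all 4, whereas none of the 69 in MOS1 or of the 29 in NBR1 was.

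The CHG context went the same way against the gene bodies, over far fewer cytosines, although the upstream flank held more CHG sites listed in all 4 libraries (4) than the gap (2). The gap has 14 CHG cytosines, of which 35.7%, 21.4%, 21.4% and 14.3% were listed, against 1.28 ± 0.404% over both gene bodies (SD, n = 4). The gap was higher by 21.9 ± 8.84 points, in 4 of 4 libraries. In the CG context the contrast with the bodies was smaller, at 59.4 ± 2.08% in the gap against 42.8 ± 0.932% (a difference of 16.6 ± 1.19 points, higher in 4 of 4 libraries). The low CG share of the bodies was that of NBR1, where 12.4% to 17.4% of 178 cytosines were listed, since MOS1 with 58.7% to 60.4% of 298 lay at the level of the gap. An exact two-sided sign-flip test over the 4 libraries gave p = 0.125 in each context (0.125 after Benjamini-Hochberg adjustment over the 3 contexts), which is the smallest p that 4 libraries allow, so that no comparison of this kind could pass 0.05. In the CHH context the test was also not free of the way the interval was chosen.

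**Figure D2:**
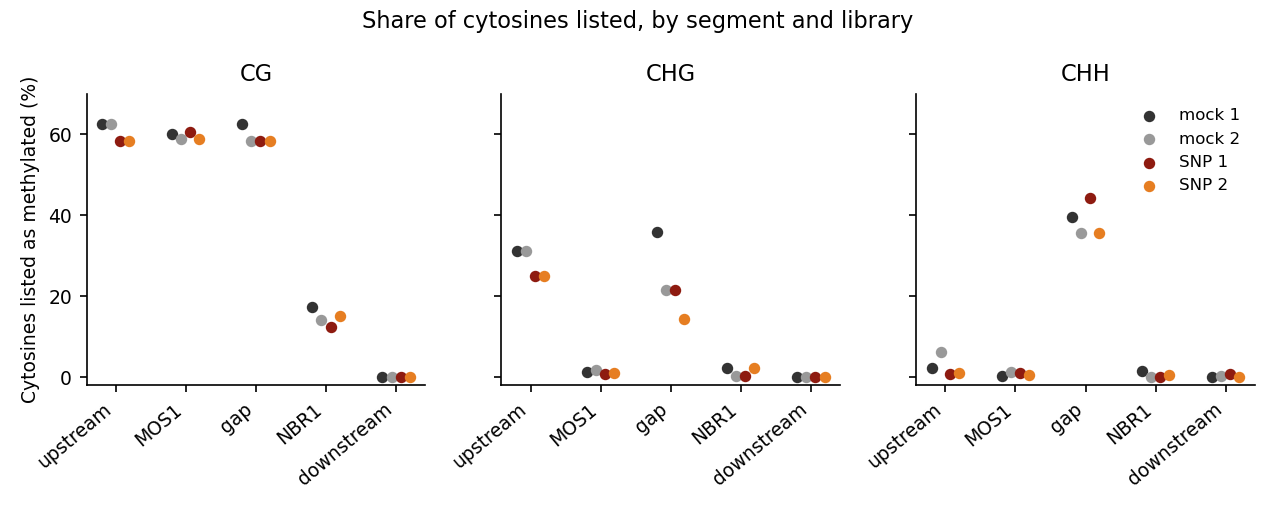
Percent of reference cytosines listed as methylated in each of the 5 segments, with 1 panel for each context and 1 point for each library. In the CHH panel the 4 libraries sit between 35.7% and 44.3% in the gap and below 2% over MOS1 and NBR1, while in the CG panel MOS1 and the gap lie together near 60%.

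Within the gap, the methylated cytosines did not spread evenly but stopped short of NBR1. When the gap sequence was aligned to the nuclear genome (BLAST, e-value 1e-05), its first 493 bp (chr4:12740095-12740587) matched 14 to 65 other places per base, with a median of 53, whereas the 444 bp next to NBR1 matched 0 or 1. There were 37 alignments of at least 400 bp, on 5 chromosomes, at identities of 67.2% to 88.4% with a median of 80.3%. The annotation used here carries no transposon feature at this position, so that the repeat is described by its copies and not by a family name.

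The share of cytosines listed changed at the edge of the repeat. In the repeated part, all 12 CG cytosines and both CHG cytosines were listed in all 4 libraries, and 76.6%, 69.1%, 84.04% and 67.02% of its 94 CHH cytosines were listed. In the 444 bp next to NBR1, 1.10%, 1.10%, 3.30% and 3.30% of 91 CHH cytosines were listed, none of them in all 4 libraries. The CG context fell there as well, to 3, 2, 2 and 2 of 12 cytosines. The 85 CHH cytosines listed in at least 2 libraries spanned 480 bp, from 17 bp after the end of MOS1 to 442 bp before the start of NBR1. The densely methylated block thus bordered on the 3′ end of MOS1, and few cytosines between it and NBR1 were listed. The alignments reached 91.9% identity over parts of 37 bp, and 88.4% among those that reach the 64 bp stretch described next. The share of such copies in reads placed here was not tested.

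**Figure D3:**
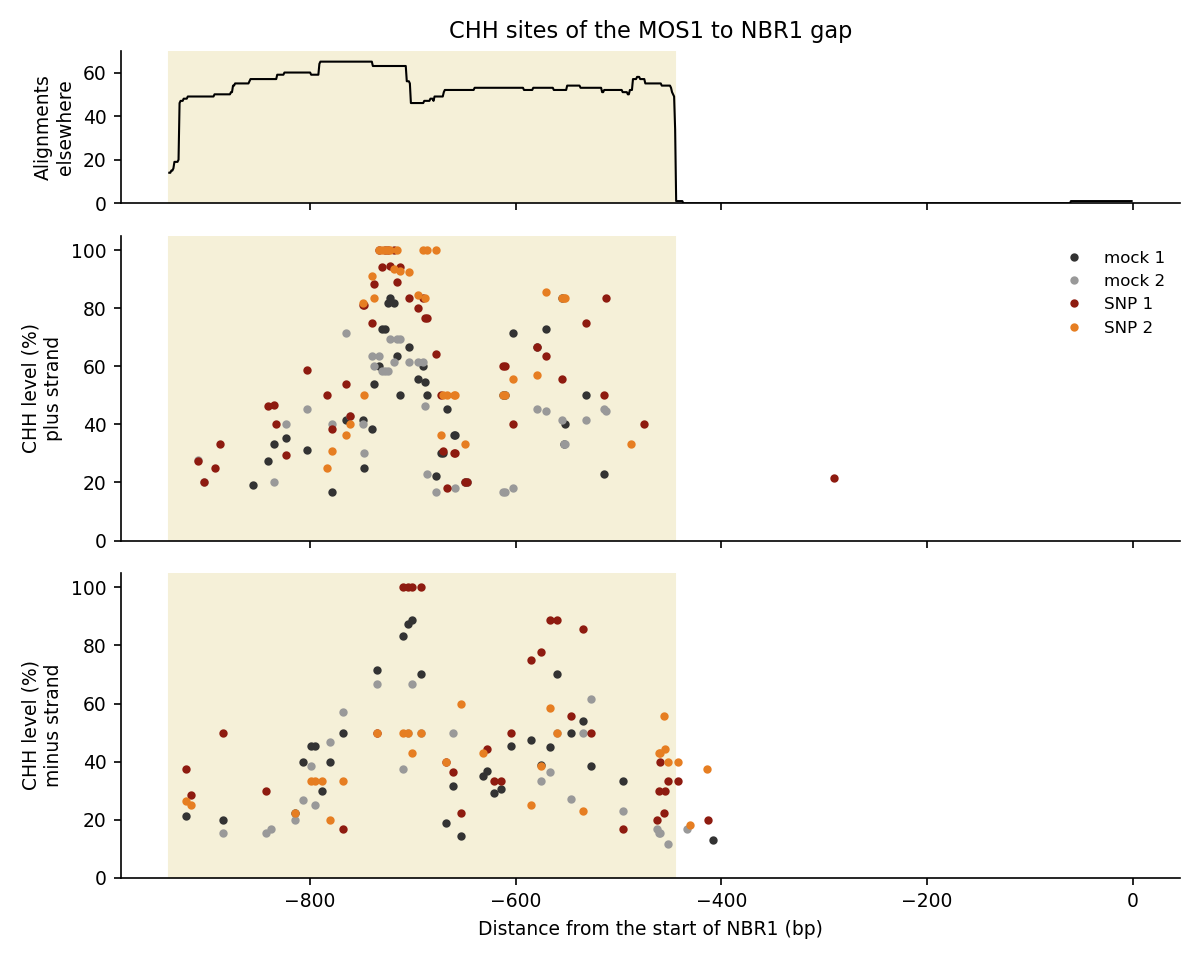
Number of alignments elsewhere in the genome for each base of the gap (top) and CHH level (percent) of each listed cytosine on the plus and minus strand, against distance from the NBR1 start (bp), with 1 point for each site and library. Sites fill the shaded repeated part, from 937 to 445 bp before NBR1, and are nearly missing from the remaining 444 bp.

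The separation of SNP from mock inside the gap was clearest on 1 strand of a short stretch, whose borders were set by the minimum of 10 reads. A stretch of 64 bp (chr4:12740283-12740346), which starts 189 bp after MOS1 and ends 686 bp before NBR1, held 15 of the 16 CHH cytosines with at least 10 reads in every library, all of them on the plus strand. All 17 plus-strand CHH sites of the stretch that were listed in every library stood at 59.1% (110 of 186), 56.6% (116 of 205), 88.1% (258 of 293) and 91.9% (192 of 209). The counts in brackets are methylated and all reads summed over the 17 sites, so that a read counts at every site it covers. The depth at a single site was 9 to 13, 10 to 13, 16 to 20 and 10 to 15 reads. At 17 of the 17 sites the SNP levels both exceeded the mock levels, with a mean of 89.96 ± 2.70% against 57.9 ± 1.81% (SD, n = 2 each). The stretch is shorter than 1 read of 75 bases, so that these sites were read largely from the same fragments and are not 17 independent measurements.

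The opposite strand of the same stretch did not separate the groups. Its 5 CHH sites stood at 80% (32 of 40), 54.3% (19 of 35), 89.2% (33 of 37) and 48.8% (21 of 43), with counts again summed over sites. Mock 1 and SNP 1 were high and mock 2 and SNP 2 low, so that the groups overlapped, with means of 67.1 ± 18.2% and 69.0 ± 28.5% (SD, n = 2 each). Here SNP was above mock by 1.87 points, against 32.1 on the plus strand, where the spread within groups was also smaller. The depth on the minus strand was 6 to 12 reads a site.

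Outside the stretch the plus-strand levels overlapped between groups. The 8 plus-strand sites between the stretch and NBR1 stood at 55.9%, 26.7%, 55.8% and 67.2%, where mock 1 exceeded SNP 1. The 4 minus-strand sites on that side stood at 52.1%, 43.9%, 85.3% and 42.3%, with SNP 1 alone being high. Towards MOS1, 2 plus-strand sites stood at 29.2%, 52.9%, 46.2% and 33.3%, and the 1 minus-strand site was lower in both SNP libraries, at 50%, 57.1%, 16.7% and 33.3%. With each strand taken alone, the plus strand of the 64 bp was the only one of these where SNP was higher without overlap. With both strands pooled, the 12 sites between the stretch and NBR1 stood at 54.3%, 32.1%, 64.2% and 55.5%, where SNP was higher by 16.6 points and SNP 2 exceeded mock 1 by little.

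Counted by site, all 37 gap CHH cytosines listed in every library had at least 5 reads in each, and both SNP libraries exceeded both mock libraries at 19 of them, 2 were lower in SNP and 16 overlapped. Over the genome, 20.1% of CHH sites at this depth had both SNP libraries above and 11.6% had both below. On the plus strand 18 of 27 sites were higher and none was lower, and on the minus strand 1 of 10 was higher and 2 were lower. At 10 reads, 15 of 16 sites were higher, beside 21.4% of sites over the genome (12% were lower). Nothing is read from these counts, since the same contrast chose the interval.

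Single sites of the stretch differed in how far apart the groups lay. The site at position 12740346, the last of the stretch, had levels of 50%, 23.1%, 76.5% and 100%, the largest difference among sites with 10 reads (51.7 points). The first, at 12740283, stood at 41.7%, 40%, 81.3% and 81.8% (40.7 points), and the site at 12740299 at 60%, 63.6%, 100% and 100% (38.2 points). The smallest difference belonged to 12740253, which lies outside the stretch towards MOS1 and overlapped between groups, at 16.7%, 40%, 38.5% and 30.8% (6.28 points). Within the stretch the sites at 12740310 (83.3%, 69.2%, 94.4% and 100%) and 12740314 (81.8%, 61.5%, 100% and 93.3%) were already high in mock and differed by 20.9 and 25.0 points. The plus-strand cytosine at 12740354, with 9 reads in mock 1, lies just outside the stretch towards NBR1 and was picked after its values were seen. It stood at 22.2%, 16.7%, 64.3% and 100% (62.7 points). Of the 8 plus-strand sites between the stretch and NBR1, it was the only 1 where both SNP libraries exceeded both mock libraries. Nothing is read from this site alone.

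**Figure D4:**
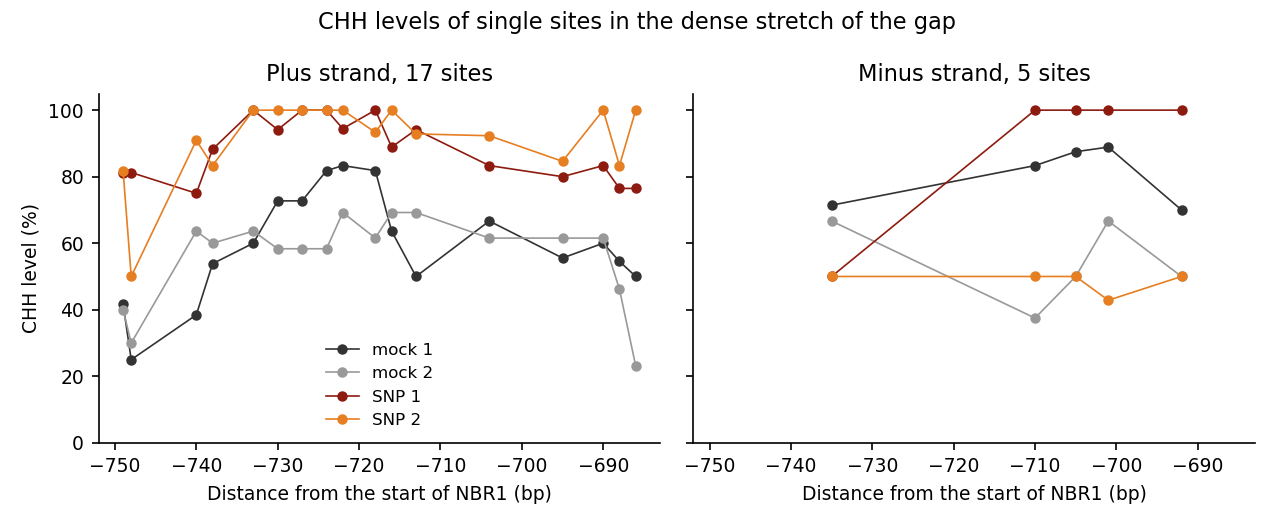
CHH level (percent) of the cytosines listed in all 4 libraries in the 64 bp stretch, against distance from the NBR1 start (bp), with 1 panel for each strand and 1 line for each library. On the plus strand SNP 1 and SNP 2 exceed mock 1 and mock 2 at 17 of 17 sites, while on the minus strand, with 5 sites, the groups overlap.

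The methylated CHH cytosines of the gap were not restricted to 1 sequence class. In the gap, 75.0% of the 12 CAC, 68.4% of the 38 CAT, 58.1% of the 31 CTA and 52.4% of the 42 CAA cytosines were listed in at least 1 library. Over the genome CAA and CTA were listed most often, at 15.6% and 16.8%, and CAC and CAT at 7.72% and 7.21%. The CC trinucleotides were few in the gap, with 4 of 16 CCA, 2 of 4 CCT and 0 of 3 CCC cytosines listed.

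CG methylation of the gap was high on both strands and lay close together in all libraries. Over the 11 CG sites with at least 5 reads in each library the level was 90.3%, 89.3%, 87.7% and 86.7%, with a mock mean of 89.8 ± 0.749% against 87.2 ± 0.744% after SNP (SD, n = 2 each). Both SNP libraries were lower, with a difference of -2.62 points, but the groups overlapped at 10 reads (1 site) and with each library's own sites. The 5 such sites at chr4:12740401-12740600 stood at 95.2%, 91.7%, 100% and 97.4%, higher in both SNP libraries, although each site alone overlapped between groups. With the sites of fewer reads there, at 12740406, 12740407 and 12740414, the groups overlapped, so that no separate direction is read from this part. By site, 2 of the 11 were lower in both SNP libraries, none was higher and 9 overlapped, beside 13.1% lower and 8.97% higher among CG sites over the genome.

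Of the 12 CG pairs of the gap, 7 were listed on both strands in all 4 libraries. The pair at 12740238, in the repeat, stood at 100%, 83.3%, 94.1% and 84.6% on the plus strand and at 100%, 83.3%, 72.7% and 62.5% on the minus strand. The pair at 12740681, the only one of the 7 outside the repeated part, was lower, at 62.5%, 76.9%, 50% and 66.7% on the plus strand and 68.4%, 92.3%, 66.7% and 57.1% on the minus strand. The 4 pairs nearest to NBR1 were not listed in any library. Of the CHG pairs, the one in the repeated part, at 12740489, was listed on both strands in all 4 libraries, at 82.6%, 75.0%, 87.5% and 89.5% together, so that all 3 contexts were methylated within the repeat.

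MOS1 carried CG methylation along most of its body and nearly none in the other contexts. Of its 298 CG cytosines, 186 were listed in at least 1 library and 167 in all 4, and 80 of its 149 CG pairs were listed on both strands in all 4 libraries. The first site listed in all 4 lay 944 bp after the gene's start and the last 492 bp before its end. With the gene divided into 10 windows of equal length, window 1 had 2 of 44 CG cytosines listed and window 9 had 2 of 28, while in window 7 all 40 were listed. Full methylation was common, with 90, 97, 83 and 92 sites at 100%, of which 27 were so in all 4 libraries.

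The CG level of MOS1 was slightly lower in SNP. Over the 121 sites with at least 5 reads in each library it stood at 90.04%, 91.0%, 88.03% and 87.8%, a mock mean of 90.5 ± 0.659% against 87.9 ± 0.154% after SNP (SD, n = 2 each), with a difference of -2.58 points and no overlap of the groups. At 10 reads, over 18 sites, the groups overlapped (80.2%, 91.3%, 83.4% and 77.4%). By site, 10 of the 121 were higher in both SNP libraries (8.26%, beside 8.97% over the genome), 17 were lower (14.05%, beside 13.1%) and 94 overlapped, so that the shares were near those of CG sites elsewhere.

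The difference between groups varied from window to window along the gene, and whether it truly differs between windows was not tested. At 5 reads, windows 2, 3, 6 and 8 were lower in both SNP libraries, and windows 4, 5, 7 and 9 overlapped between groups. In window 2, over 4 sites, the level was 64.7%, 80.8%, 58.7% and 40.4%, a difference of -23.2 points with a pooled SD of 12.2. Window 6, with 19 sites, stood at 96.8%, 95.7%, 89.8% and 91.6%, a difference of -5.55 points. The last window, which borders the gap, stood at 87.7%, 85.3%, 92.2% and 92.2% over 8 sites. Both SNP libraries were higher there, by 5.70 points. That direction depended on the depth minimum, since it was not kept over the 14 sites of the window listed in all 4 libraries. Of the sites left out, those at 12739424, 12739426 and 12739469 were lower in both SNP libraries and none was higher in both. Sites in exons (94 sites, 90.7%, 91.3%, 88.2% and 86.8%) differed by -3.51 points, whereas those in introns (27 sites, 87.9%, 89.8%, 87.7% and 90.9%) overlapped. The sites of MOS1 with the largest difference were both at its 5′ side, at 12734516 on the plus strand with 100%, 90.9%, 36.4% and 66.7%, and at 12733450 on the minus strand with 91.7%, 100%, 40% and 66.7%, the latter at 3 to 12 reads.

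NBR1 had a much sparser CG pattern. Of its 178 CG cytosines 37 were listed in at least 1 library and 17 in all 4, and 66 of its 89 CG pairs were not listed on either strand. The sites listed in all 4 libraries lay in 2 clusters, at chr4:12742136-12742822 and chr4:12743716-12743822, the first beginning 1104 bp after the gene's start and the last ending 848 bp before its end. All of them were exonic, and of the 38 CG cytosines in introns 2 were listed, both in mock 1 alone.

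The CG level of NBR1 overlapped between groups. Over 16 sites with at least 5 reads it stood at 85.4%, 87.6%, 79.3% and 85.7%, with SNP 1 low and SNP 2 within the mock range (means of 86.5 ± 1.59% and 82.5 ± 4.55%, SD, n = 2 each, a difference of -4.03 points). By site, 2 of the 16 were higher in both SNP libraries (12.5%, beside 8.97% over the genome), 6 were lower (37.5%, beside 13.1%) and 8 overlapped. The largest differences went in opposite directions at the ends of the first cluster. At 12742136 on the plus strand the levels were 30%, 28.6%, 64.3% and 55.6%, and at 12742822 on the minus strand they were 100%, 100%, 60% and 80%, the latter at 5 to 10 reads.

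**Figure D5:**
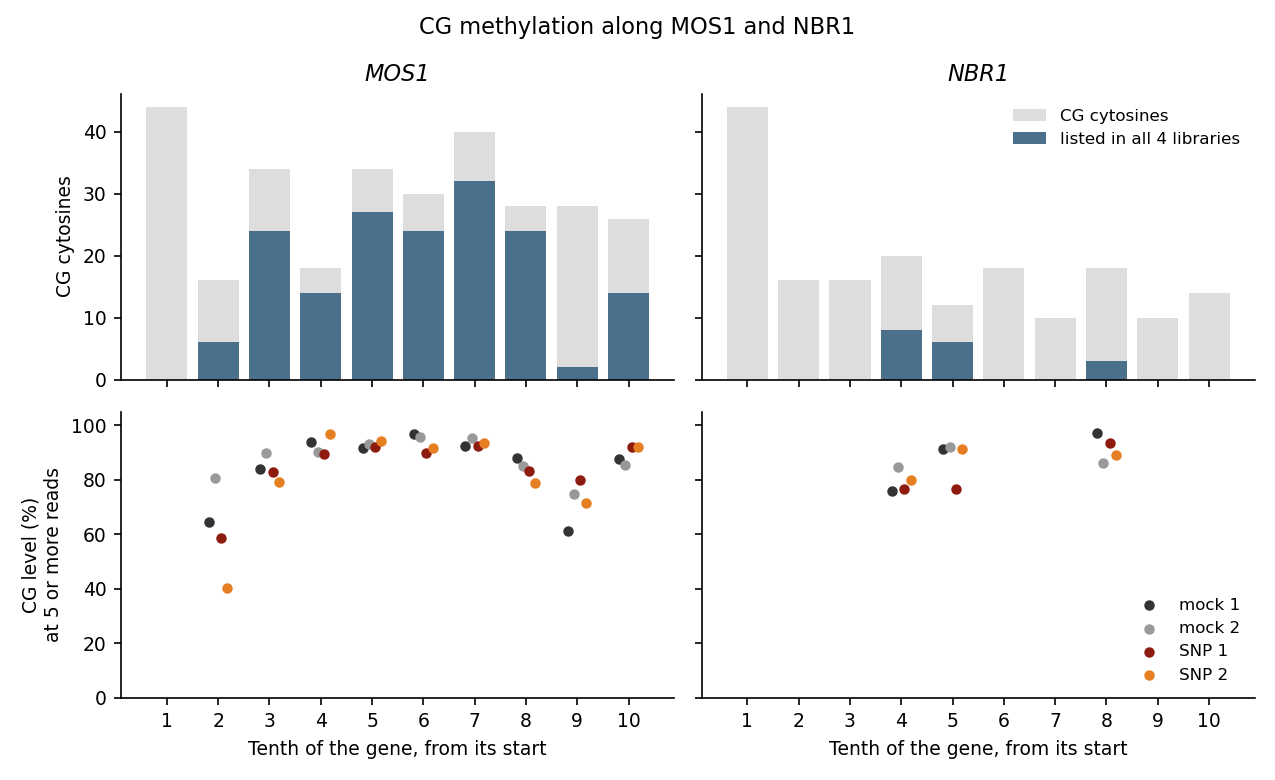
CG cytosines of MOS1 and NBR1 in 10 windows of equal length from each gene's start, as the number present (grey bars) and listed in all 4 libraries (blue bars), and below them the CG level (percent) of each library over sites with at least 5 reads in all 4. MOS1 has such sites from window 2 to window 10 and NBR1 in 3 of its 10 windows. Over the 8 such sites of its last window, MOS1 is higher in both SNP libraries, at 92.2% against 85.3% and 87.7%. This direction is not kept over the 14 sites of that window listed in all 4 libraries.

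Some of the non-CG calls inside the genes came as runs in single libraries. With runs defined as at least 5 non-CG sites on 1 strand, at most 15 bp apart and listed in no other library, the genes and the upstream flank held 8 of them. In mock 1, 10 sites of NBR1 (chr4:12742161-12742210, minus strand) rested on 2 or 3 methylated reads of 9 to 12 each. In mock 2, 13 sites of MOS1 (chr4:12737905-12737946, minus strand) had 2 methylated reads each, and in SNP 2, 10 sites of MOS1 (chr4:12738754-12738797, plus strand) likewise. Runs occurred in all 4 libraries, and each rested on about as many methylated reads as the minimum for listing.

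The flanks differed from each other. In the upstream flank of MOS1, 14 CG sites were listed in all 4 libraries, all between 12731902 and 12732115, at 84.5%, 92.2%, 77.8% and 72.0%. Both SNP libraries were lower (74.9 ± 4.09% against 88.4 ± 5.43%, SD, n = 2 each), although at 10 reads, where 3 sites were left, the groups overlapped. The 4 CHG sites of the flank stood at 67.3%, 61.4%, 61.4% and 41.9%, and none of its 23 listed CHH sites was in all 4 libraries. In the flank behind NBR1 none of 46 CG and none of 52 CHG cytosines was listed in any library, where AT4G24700 lies.

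Set against the rest of the genome, the gap ranked high in the CHH context and less so in the others. Of 12797 intergenic gaps of 500 to 2000 bp, 124 (0.969%) had at least as high a share of CHH cytosines listed in 2 or more libraries as its 45.9%, and the median gap had 0. In CG, 24.3% of gaps reached its 58.3%, and in CHG 31.1% reached its 21.4%. The CHH rank was partly fixed in advance, because the bin that chose the interval had to hold CHH sites listed in every library. Gaps without such sites, the median gap among them, could not have been chosen, so that the CHH rank is a description only. Among protein-coding genes MOS1 was high in CG, with 60.4% of its cytosines listed in 2 or more libraries, a share that 5.16% of genes reached. NBR1, with 15.7%, was reached by 37.9% of genes, against a median of 7.41%.

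Where a gene was joined with the 1 kb upstream of it and all contexts were pooled, the sequence ahead of NBR1 counted towards NBR1. Its region stood at 70.8%, 66.03%, 80.02% and 78.1% over 66 sites with at least 5 reads, higher in SNP by 10.6 points, while the gene alone (16 sites) had a difference of -4.03 points. The region's direction was thus that of the gap and not of the gene body. The MOS1 region stood at 88.9%, 90.1%, 86.5% and 85.1% over 136 sites, with a difference of -3.73 points. Over all 14097 regions tested, 11 (0.078%) were higher and 344 (2.44%) lower in SNP at an adjusted p under 0.05 (edgeR), with a median difference of -2.01 points.

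Genes that work with the members were looked at in the same table. Of 21 autophagy genes, the machinery that NBR1 delivers its cargo to, 13 could be tested, with 0 higher, 1 lower and a median difference of 0.820 points. The 1 was ATG8I, which encodes a ubiquitin-like protein of the ATG8 family bound by NBR1, at 92.4%, 92.8%, 81.7% and 82.2% (a difference of -10.7 points, edgeR adjusted p = 0.0485). This call was lost when any 1 library was left out (adjusted p between 0.111 and 0.236). With 1 of 13 called against 2.52% of all regions, nothing particular is read from the list.

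Of 5 genes linked to MOS1, 2 could be tested. SNC1, the immune receptor gene whose expression requires MOS1, stood at 82.3%, 80.3%, 72.0% and 66.6% over 90 sites, so that each SNP library was below each mock library (edgeR adjusted p = 0.00839). Without SNP 2 the adjusted p was 0.125, and SNC1 belongs to a cluster of similar genes, so that reads may be shared with its neighbours. SUF4, a zinc finger regulator of flowering and the other gene of the list that could be tested (named in addition to the rule), stood at 88.2%, 82.1%, 79.7% and 77.6% over 24 sites and did not pass the test (adjusted p = 0.348), although the gene without its upstream 1 kb did, with a difference of -9.51 points (adjusted p = 0.0300), beside 5.97% of genes called lower in that fit.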

How the data were processed

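EM-seq libraries (mock and SNP, 2 each) were analysed from the deposited lists of methylated cytosines, which give for each site the methylation level as a fraction and the read count (depth). Per the labels, the authors' processing notes name FastQC, Bismark and TAIR10; versions and the rule for listing a site are not given in the sources used here. Positions were matched to TAIR10.1. Methylated reads were recovered as level times depth, and levels are methylated reads over all reads. Unless stated, sites had at least 5 reads in every library (10 for gap CHH). Bins of 200 bp (at least 3 sites, 10 reads) and gene regions (gene plus 1 kb upstream, at least 10 sites, 5 reads) were tested on methylated and unmethylated counts summed over sites, with edgeR 4.0.16 (limma 3.58.1, R 4.3.3). The fit was also run on simulated counts. These were drawn without reads shared between sites, so that they cannot show how such reads affect the calls. Gap and bodies were compared by an exact sign-flip test. Python 3.11.15, numpy 2.4.6, pandas 2.3.3, scipy 1.17.1, statsmodels 0.14.6, matplotlib 3.10.9 and BLAST+ 2.17.0 were used. The members and gene lists were chosen with earlier results of these data known. Named were both members, genes at the flanks, list genes with an adjusted p under 0.05 (otherwise the 2 largest differences), the 3 gap CHH sites with the largest and the 3 with the smallest difference, and at most 2 body sites a gene. Depth minimum, site choice, strand, bin size and position, minimum level, gene alone, replicate block and each library left out were tried as alternatives, with mean depth per bin added after seeing the data. Intervals from reads would cover counting error only, so errors are given between libraries.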

Additional observations from a re-analysis of the deposited data

How the results depend on the processing

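The difference of SNP minus mock in gap CHH methylation (31.8 points at 10 reads) was 22.4 at 5 reads and with no minimum depth, and 19.9 with the sites of each library; without single libraries it ran from 31.0 to 32.7. Gap CG (-2.62) was -3.61 with no minimum depth, -3.57 as the mean of site levels, -1.84 on the plus and -3.43 on the minus strand (without single libraries -3.15 to -2.09). Gap CHG (9.68) was 24.0 with the sites of each library, 16.8 on the plus and 1.51 on the minus strand (5.88 to 13.5). MOS1 CG (-2.58) was -5.37 at 10 reads, -3.14 with no minimum and -3.37 with the sites of each library (-3.05 to -2.12), and NBR1 CG (-4.03) was -0.353 with the sites of each library (-7.25 to -0.806). No site was left for gap CHH on the minus strand or for gap CHG at 10 reads. Over the genome, CHH bins called (1, edgeR) numbered 0 at 5 reads, 2 with bins of 100 bp, 1 with shifted bins, 3 with no minimum level and 0 with mean depth per bin, which was chosen after seeing the data (64 at an unadjusted p under 0.05, against 248). The calls with bins of 100 bp and with shifted bins were all lower in SNP and none was in the gap. The call in the gap was lost at 5 reads (adjusted p = 0.522), with bins of 100 bp (0.0516 and 0.450), with shifted bins (0.0546 and 0.401), with mean depth (1) and without mock 2 (0.0689), and its adjusted p was 0.0343 with no minimum level, 0.0409 with the block and 6.47e-05 to 0.0123 without each other library. Without mock 1, mock 2, SNP 1 and SNP 2 they numbered 22, 0, 28 and 15. CG bins (0, with 895 at an unadjusted p under 0.05) numbered 4 at 5 reads, 1 with bins of 100 bp and 1 with shifted bins (0 to 1 without single libraries). CHG bins (0, with 415) numbered 0 to 6 without single libraries, and gene regions (355) numbered 1 at 10 reads, 671 for the gene alone and 52 to 470 without single libraries. The gap exceeded the gene bodies under all 6 alternatives for each context, by 36.2 to 39.1 points in CHH, 17.9 to 24.9 in CHG and 13.9 to 16.9 in CG. Leaving out 1 library could not change this direction, since the gap was higher in each library. In CHH the contrast was also partly fixed by how the interval was chosen. Replicate numbers in the titles were not taken as pairs. Deviations of same-numbered libraries correlated at r = 0.0148, -0.0109 and 0.00516 over CG, CHG and CHH bins, which at these depths cannot exclude shared handling. With the number as a block, 17 CG, 0 CHG and 1 CHH bins and 600 gene regions were called. The 5 differences above cannot change with this block, since each group holds both numbers. The cause of these changes was not tested. Depths of 8 to 10 reads limit what single sites can show.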
